A study of Mus musculus with 24 samples.

Results

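Immediate early genes are the first genes that a cell transcribes after a signal reaches it. The 10 genes described here are Fos, Jun, Junb, Fosl2, Atf3, Egr1, Klf6, Ier2, Ier3 and Myc. They were taken by symbol from the 22392 genes measured in mouse liver, through the gene identifiers of GENCODE M21, and each matched 1 protein-coding gene. All 10 had a mean normalised read count of at least 10 over all livers and so entered the test, which covered 14040 genes in all.

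RNA was sequenced from the livers of 24 CD2F1 mice, 8 in each of 3 groups. CT mice had a sham injection and carried no tumour. C26 mice carried a transplant of C26 cells, a mouse colon carcinoma line used as a model of cancer wasting, and had no treatment. C26-CHO mice carried the same transplant and ate cholestyramine, a bile-acid-binding resin that stays in the gut. The resin was 2% (w/w) of their chow, given between day 1 and day 10 following injection of the cells. The question of the design is how the tumour, and the resin given with it, affected the liver transcriptome. No group received the resin without a tumour. The labels give no age, sex, tumour weight, time of day or batch, and do not say that mice of the same number in different groups shared a cage or a day.

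Fos, Jun, Junb and Fosl2 encode subunits of activator protein 1 (AP-1), a transcription factor that binds DNA as a pair of subunits joined by leucine zippers, and Atf3 encodes a related stress-induced factor that pairs with Jun proteins. Egr1 and Klf6 encode zinc-finger transcription factors, Ier2 and Ier3 encode small response proteins, and Myc encodes a growth regulator that binds DNA together with Max. Their transcripts are made without new protein synthesis and most are short-lived, so that a steady-state level follows recent signalling through MAP kinases, cytokine receptors and stress pathways. In liver these genes are known from regeneration after partial hepatectomy and from the acute phase response.

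The promoters of Fos, Jun and Junb are shown because the balance of these AP-1 subunits is a pattern that the results turn on. Each run is the 250 bases before the annotated start, taken from RefSeq on GRCm38.p6 and read 5′ to 3′ on the strand of the gene. Fos lies at chr12:85473640-85473889 on the plus strand, Jun at chr4:95052223-95052472 on the minus strand and Junb at chr8:84978749-84978998 on the minus strand. Capitals mark matches to the motifs listed after the sequences.
Fos: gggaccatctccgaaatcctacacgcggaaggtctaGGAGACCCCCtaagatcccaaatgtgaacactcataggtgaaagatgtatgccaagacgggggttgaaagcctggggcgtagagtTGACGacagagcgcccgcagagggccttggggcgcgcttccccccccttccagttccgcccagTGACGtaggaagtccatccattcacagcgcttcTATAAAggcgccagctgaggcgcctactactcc
Jun: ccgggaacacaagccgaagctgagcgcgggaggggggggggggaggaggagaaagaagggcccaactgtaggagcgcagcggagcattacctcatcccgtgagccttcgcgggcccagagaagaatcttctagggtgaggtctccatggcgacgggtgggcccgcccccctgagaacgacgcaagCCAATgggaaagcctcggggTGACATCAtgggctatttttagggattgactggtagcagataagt
Junb: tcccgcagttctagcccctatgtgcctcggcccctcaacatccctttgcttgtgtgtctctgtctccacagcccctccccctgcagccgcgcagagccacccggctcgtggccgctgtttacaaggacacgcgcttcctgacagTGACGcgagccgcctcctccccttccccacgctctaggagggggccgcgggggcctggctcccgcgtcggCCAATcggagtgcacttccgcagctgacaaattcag

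Motifs were searched on both strands in the 250-base windows of the 7 members that had an entry in the RefSeq table, and Egr1, Ier2 and Myc had none. The letters TGACG, the core of the cyclic AMP response element TGACGTCA and contained in it, occurred in the Fos window from -129 to -125 and from -66 to -62 relative to the start, and in the Junb window from -106 to -102. The Jun window held TGACATCA, a known variant site for Jun and ATF dimers, from -45 to -38. TGACG was found in 17.8% of 32851 promoter windows of the same length, TGACATCA in 2.93%. Fos also held TATAAA from -33 to -28, a match found in 12.4% of windows, and a match to the NF-kB consensus on the other strand from -214 to -205, found in 7.25%. CCAAT boxes lay from -65 to -61 in Jun and from -36 to -32 in Junb, and 33.8% of windows held one. NF-kB consensus matches also lay in the windows of Ier3 and Fosl2, a further TGACATCA from -119 to -112 in that of Klf6, and TGACG on the other strand from -7 to -3 in that of Atf3. The windows of Ier3, Klf6 and Atf3 each overlapped 1 exon entry of GENCODE M21, and that of Fosl2 overlapped 2. Those of Fosl2 (chr5:32136222-32136471) and Atf3 (chr1:191183334-191183583) lay inside the GENCODE M21 gene. None of these 7 windows matched TGACGTCA (1.55% of windows), TGANTCA (6.75%), TTCNNNGAA (7.02%) or the serum response element core known as the CArG box (1.47%). A match describes the letters only.

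Recovered reads ran from 19.9 M to 30.5 M per library, and livers of C26-CHO mice were read most deeply (25.8 ± 3.50 M, SD, n = 8, against 22.02 ± 1.10 in CT and 22.8 ± 2.90 in C26). On the first principal component, which held 71.9% of the variance of the tested genes, CT livers lay between -83.15 and -75.36 and C26 livers between 28.81 and 54.62. C26-CHO 1 lay between these groups at -13.41, and C26-CHO 7, at 22.32, just outside the C26 range. Hepatocyte markers such as Alb were present in all groups, with a summed level of 1107820 to 1761070. Single markers moved in opposite directions: 4 of the 10 were higher in C26 than in CT, among them Fgb (log2 fold change 3.34). A further 4 were lower, among them Alb (-2.06). Markers of Kupffer cells, the resident macrophages, summed to 5825 to 8278 in CT, 10355 to 13399 in C26 and 9685 to 16756 in C26-CHO, and 10 of the 11 were higher in C26 than in CT. Neutrophil markers summed to 40.8 to 81.0 in CT, 298.5 to 1099 in C26 and 198 to 556 in C26-CHO. All 5 of the 12 that were tested were higher in C26, and Camp had a median of 0. In C26 against CT, endothelial markers were called higher for 7 of 10 and lower for 1, and lymphocyte markers were lower for all 3 tested. Of all tested genes, 33.3% were higher and 32.9% lower in that comparison, and the marker lists were not tested against these shares. Bile duct markers, summed without Spp1, ran from 290.04 to 465 in CT, 774 to 1682 in C26 and 555 to 1109 in C26-CHO. Both tumour-bearing groups lay above CT but overlapped each other. Sox9 (log2 fold change 3.96, with a mean of 38.0 in CT and 616 in C26) and Spp1 were among those higher in C26, while Krt7, Krt19 and Epcam did not pass. Stellate cell markers were higher in C26 than in CT for 5 of 11 and lower for 1. The colon epithelium markers Cdx2 and Muc2 had a median of 0, and the summed level of that list was 49.4 to 80.7 in C26 against 77.7 to 165 in CT. Whole liver was sequenced, so fewer or more cells of a type and less or more RNA per cell cannot be told apart, and the part of other cell types in the results below was not tested.

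Livers of C26 mice held more transcript of 7 of the 10 genes than CT livers. These were Ier3, Fosl2, Fos, Junb, Egr1, Atf3 and Klf6, and no member was lower. Jun, Ier2 and Myc did not pass the test. Of all genes tested, 66.3% were called in this comparison, 33.3% higher and 32.9% lower. The median log2 fold change of the members was 0.98, against 0.006 over all tested genes. How many of all tested genes separate the groups without overlap, as some members below do, was not counted. Calls rest on limma with Benjamini-Hochberg adjustment over all 14040 genes, at an adjusted p under 0.05, and fold changes are differences of log2(value + 1).

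Fosl2 (ENSMUSG00000029135, chr5:32135801-32157842 on GRCm38), the AP-1 subunit also called Fra-2, separated tumour-bearing from control livers with little spread. Its normalised read count was 90.7 at the lowest, 104 at the median and 117.5 at the highest in CT, and 404, 488 and 520 in C26. Every C26 liver exceeded every CT liver. In C26-CHO the lowest was 214, the median 485 and the highest 544, and all 8 again lay above the highest CT liver. C26 exceeded CT by 2.173 on the log2 scale (SE 0.128, adjusted p = 1.15e-13). C26-CHO 1 alone made the low value of 214, and the next C26-CHO liver stood at 431.

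Fos (ENSMUSG00000021250, chr12:85473890-85477273), the founding member of its family, was also higher in C26 but varied more between mice. The lowest, median and highest normalised read counts were 11.5, 76.3 and 149 in CT, 83.2, 213 and 760 in C26, and 133, 311 and 523 in C26-CHO. The lowest value, in CT 8, stood on 13 reads. CT and C26 overlapped: 5 of 8 C26 livers exceeded the highest CT liver. The difference of C26 from CT was 1.78 on the log2 scale (SE 0.453, adjusted p = 0.00123). In C26-CHO, 7 of 8 livers exceeded the highest CT liver.

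Junb (ENSMUSG00000052837, chr8:84974484-84978718), a Jun-family subunit that is a strong partner of Fos proteins and a weak activator on its own, was lowest at 334, 949 at the median and highest at 1729 in CT. C26 livers ran from 2407 through 2838 to 3656, and C26-CHO livers from 2325 through 2764 to 3423. No tumour-bearing liver overlapped the controls. On the log2 scale C26 lay 1.67 above CT (SE 0.212, adjusted p = 1.4e-07). The gene model overlaps Prdx2 on the other strand, and the use of strand in counting is not given in the sources used here, so reads from their overlap cannot be told apart.

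Jun (ENSMUSG00000052684, chr4:95049034-95052222) did not rise with its partners. Normalised read counts were 674.5, 1126 and 2286 (lowest, median, highest) in CT, 627, 803 and 1656 in C26, and 621, 1321 and 1962 in C26-CHO. The ranges overlapped almost fully. The log2 fold change of C26 against CT was -0.51 (SE 0.24, 95% interval -1.003 to -0.02, adjusted p = 0.0643). It passed the threshold as lower without C26 3 (-0.64, adjusted p = 0.0201), without CT 8 (-0.64, 0.0178), without C26-CHO 1 (-0.51, 0.0402), without both CT 8 and C26-CHO 1 (-0.64, 0.00755) and in edgeR's quasi-likelihood test with the deposited size factors (-0.55, 0.0474). Jun overlaps the antisense gene Junos, so the same limit on strand applies.

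Atf3 (ENSMUSG00000026628, chr1:191170296-191218039), a stress-induced relative of the AP-1 family, had a CT level of 17.01 normalised reads per kb of exon, between Fosl2 at 10.9 and Fos at 33.8. Lowest, median and highest normalised read counts were 11.5, 29.0 and 81.2 in CT, 35.8, 52.0 and 121 in C26 and 23.5, 60.03 and 89.1 in C26-CHO. All 8 C26 livers exceeded the CT median, but only C26 3 exceeded the highest CT liver. C26 lay 0.82 above CT on the log2 scale (SE 0.315, adjusted p = 0.0244), a difference that fell short of the threshold without C26 3 (0.66, 0.0635), CT 6 (0.63, 0.0653) or CT 8 (0.72, 0.0532). It also did so in edgeR with TMM (0.69, 0.0603) or deposited size factors (0.67, 0.0659).

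**Figure D1:**
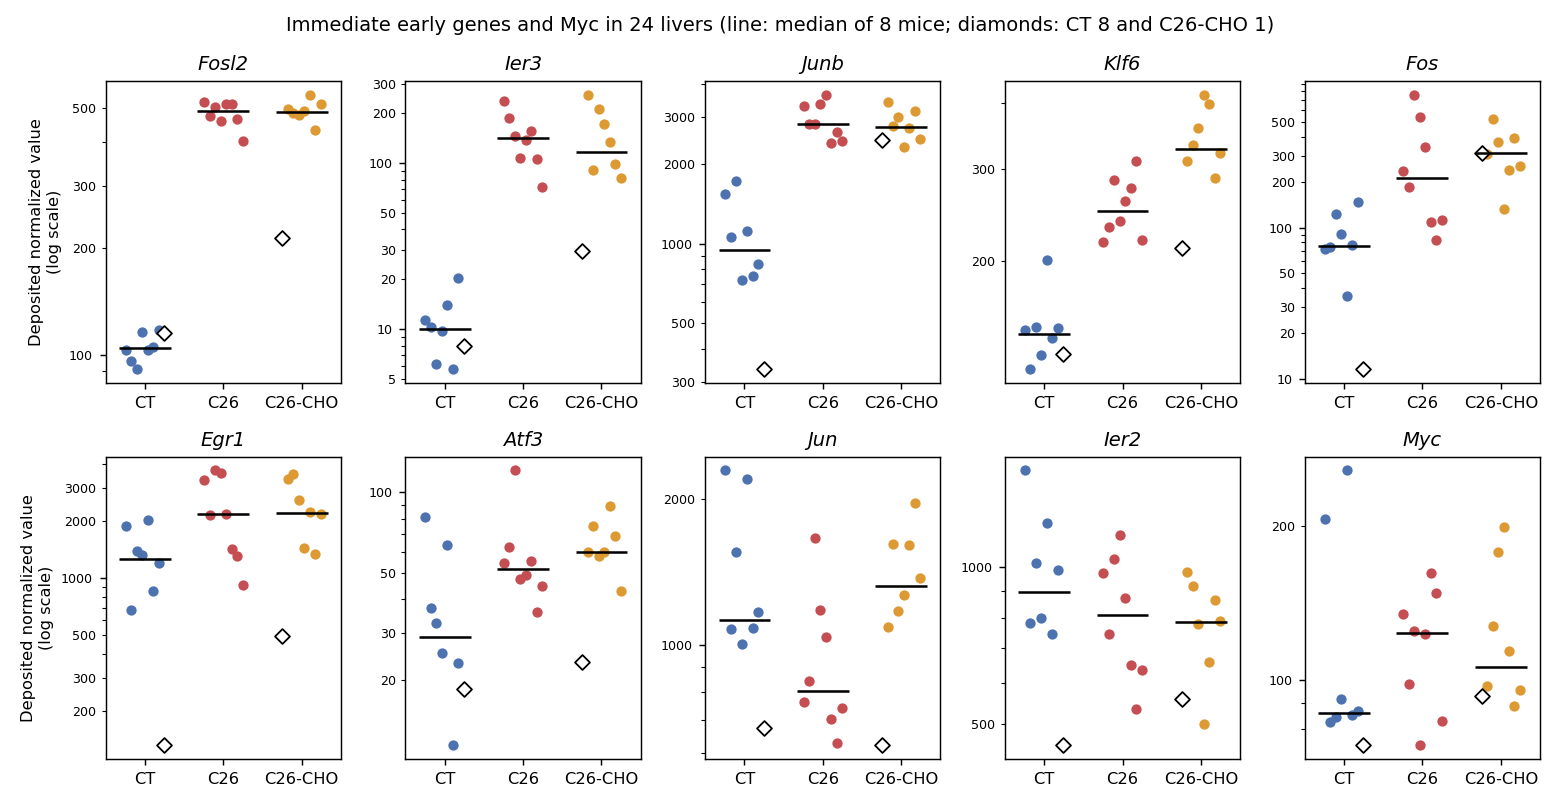
Normalised read counts (vertical axis, log scale) of the 10 genes in CT, C26 and C26-CHO livers, with 1 point per mouse, a line at the median of 8 mice and diamonds for CT 8 and C26-CHO 1. Fosl2, Ier3, Junb and Klf6 separate CT from both tumour-bearing groups without overlap, while Jun, Ier2 and Myc overlap in all 3 groups. How many of all tested genes separate in this way was not counted.

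Ier3 (ENSMUSG00000003541, chr17:35821684-35822923), which encodes a stress-response protein linked to cell survival and NF-kB signalling, showed the largest fold among the members. It had few reads in CT, 6 to 22 per library, and normalised read counts of 5.74, 10.0 and 20.3. C26 livers gave 72.02, 142 and 236.5, and C26-CHO livers 29.7, 116.5 and 259. Every tumour-bearing liver exceeded every CT liver. Its log2 fold change of C26 over CT was 3.64 (SE 0.329, adjusted p = 3.69e-10), rank 148 from the top among all 14040 genes. Fosl2 was at rank 367, Fos at 517 and Junb at 580.

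Klf6 (ENSMUSG00000000078, chr13:5861482-5870394), a Krüppel-like factor that responds to tissue injury, was 124, 145 and 200.5 (lowest, median, highest) in CT, 217, 249.5 and 311 in C26 and 212, 327 and 415 in C26-CHO. C26 and CT did not overlap, although the highest CT liver, CT 5, stood apart from the next at 150. C26 was 0.79 higher on the log2 scale (SE 0.114, adjusted p = 1.14e-06). Its 95% interval of 0.56 to 1.03 was the narrowest among the members.

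Egr1 (ENSMUSG00000038418, chr18:34859823-34864984), an early growth response factor induced through serum response factor and Elk proteins, had values of 132, 1266 and 2020 in CT, 925, 2176 and 3695 in C26 and 498, 2211 and 3553 in C26-CHO. The ranges overlapped, and 5 of 8 livers in each tumour-bearing group exceeded the highest CT liver. The log2 fold change of C26 over CT was 1.14 (SE 0.454, adjusted p = 0.0305). This call was lost when C26 1 (1.04, adjusted p = 0.0572), C26 3 (1.02, 0.0616), C26 4 (1.02, 0.0601), CT 2 (1.07, 0.0527) or CT 8 (0.73, 0.0775) was left out. CT 8 had the lowest Egr1 of all 24 livers.

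Ier2 (ENSMUSG00000053560, chr8:84661331-84662852), which lies 311.6 kb from Junb on the same chromosome and encodes a nuclear response protein, did not differ between groups beyond the spread. Lowest, median and highest values were 455, 895 and 1536 in CT, 534, 809 and 1152 in C26 and 499, 784 and 981 in C26-CHO. The log2 fold change of C26 against CT was -0.16 (95% interval -0.56 to 0.25, adjusted p = 0.495).

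Myc (ENSMUSG00000022346, chr15:61985391-61990374) did not differ between groups beyond the spread, with means of 121 ± 69.4 in CT, 118 ± 30.8 in C26 and 124 ± 41.8 in C26-CHO (SD, n = 8 each). The CT mean was carried by CT 1 at 206 and CT 5 at 256, while the other 6 controls lay between 74.5 and 91.6. CT had a median of 86.1, C26 of 124 and C26-CHO of 106. On the log scale the difference of C26 from CT was 0.08 (SE 0.24, 95% interval -0.41 to 0.58, adjusted p = 0.774). Its sign turned under quantile normalisation (-0.01), edgeR with TMM (-0.02) or deposited size factors (-0.03) and DESeq2 (-0.03).

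Junb and Jun had equal mean shares of the AP-1 transcripts in CT, and Junb had the largest share in both tumour-bearing groups. Levels per kb of exon were compared for the 7 Fos- and Jun-family genes, including Jund, Fosb and Fosl1, and each gene's share of their sum was taken. Junb made up 30.6% ± 7.27 of the sum in CT (SD, n = 8), 54.8% ± 4.54 in C26 and 49.6% ± 3.68 in C26-CHO. The lowest tumour-bearing liver stood at 44.7%, just above the highest CT liver at 44.4%. Jun made up 30.6% ± 5.13 in CT, 12.4% ± 2.83 in C26 and 16.9% ± 4.06 in C26-CHO, and no tumour-bearing liver reached the lowest CT liver at 25.4%. Jund, the steadily expressed Jun-family member, had shares of 35.1% ± 8.58 in CT, 25.5% ± 2.41 in C26 and 22.8% to 28.5% in C26-CHO, while its own level rose (log2 fold change 0.38 for C26 over CT, adjusted p = 0.000282). Fos held 2.48% ± 1.47, 4.97% ± 3.42 and 5.44% ± 1.76, Fosl2 0.875% ± 0.353, 2.16% ± 0.35 and 1.91% ± 0.418, and neither Fosb nor Fosl1 passed 0.352% in any liver. The ratio of Junb to Jun in normalised read counts, not divided by length, ran from 0.495 to 1.11 in CT (median 0.706). It ran from 1.72 to 4.35 in C26 (median 3.39) and from 1.62 to 3.96 in C26-CHO (median 1.82). Shares sum to a whole, so a rise of one lowers the others, and they were not tested.

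**Figure D2:**
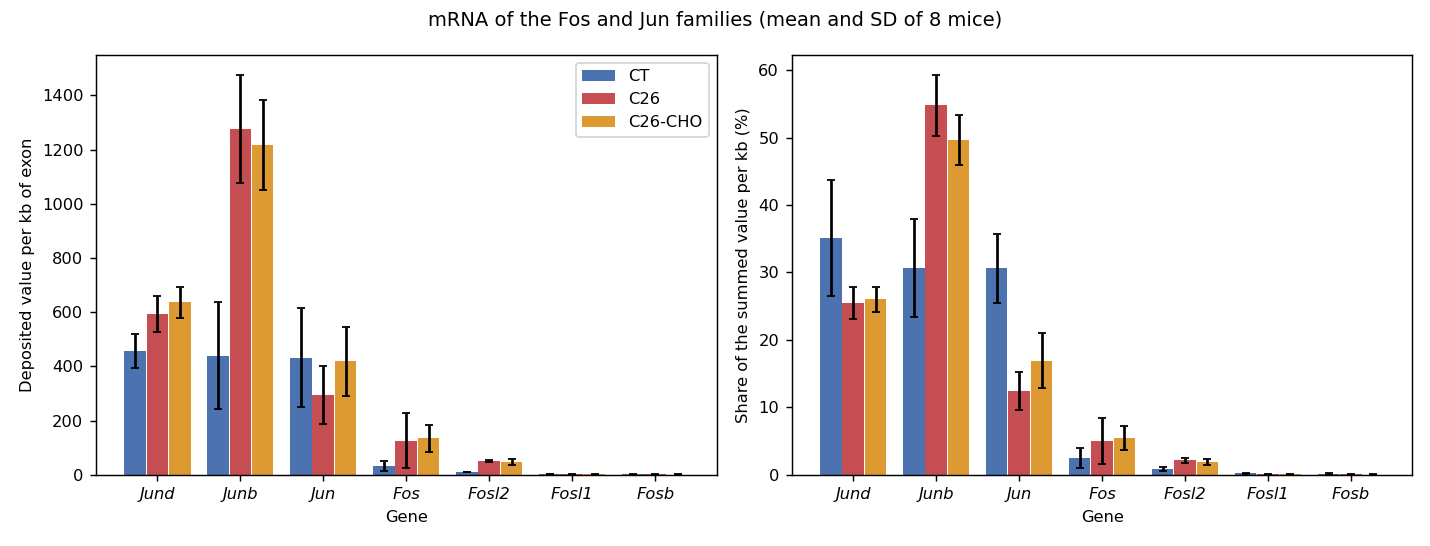
Level per kb of exon of the Fos- and Jun-family genes and the share of each in their sum, as mean and SD of 8 mice in each group. The share of Junb is 30.6% in CT and 54.8% in C26 on average, and the share of Jun is 30.6% and 12.4%.

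In livers of tumour-bearing mice fed cholestyramine, 6 of the 10 genes were higher than in CT, with a background of 62.2% of genes called, 31.3% higher and 30.9% lower. These were Ier3 (log2 fold change 3.38, adjusted p = 1.92e-09), Fos (2.18, 0.000171), Fosl2 (2.05, 4.75e-13), Junb (1.61, 3.32e-07), Klf6 (1.14, 3.05e-09) and Atf3 (0.84, 0.0226). Egr1 was 0.97 higher (95% interval 0.04 to 1.91) at an adjusted p of 0.0653. Egr1 passed without CT 1 (1.11, 0.0419), CT 5 (1.13, 0.0388) or C26-CHO 1 (1.24, 0.0132), under quantile normalisation (1.04, 0.0459), with the replicate number as a block (0.97, 0.0495) and without both CT 8 and C26-CHO 1 (0.84, 0.0185). The call of Atf3 was lost without CT 6 (0.65, 0.06) and in edgeR with TMM (0.70, 0.0548) or the deposited size factors (0.69, 0.0604). Myc stood at 0.13 (adjusted p = 0.646), Jun at -0.00 (0.987) and Ier2 at -0.27 (0.235), and Ier2 passed as lower without CT 8 (-0.41, 0.0486). This comparison shares the CT livers with that of C26 against CT, so their values are not independent of each other.

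No member differed past the threshold between C26-CHO and C26. In limma 0 of 10 members were called in C26-CHO, where 0.705% of all genes were called (0.556% higher, 0.150% lower), and the members' median log2 fold change was -0.02. The genes called were 78 higher and 21 lower, and 74 higher and 34 lower under quantile normalisation. No member was called in edgeR or DESeq2 either. At an unadjusted p under 0.05 in limma, 2 members and 1832 of all genes passed. Those were Klf6 (0.35, 95% interval 0.12 to 0.59, adjusted p = 0.146 in limma) and Jun (0.50, 0.01 to 1.00, adjusted p = 0.366). Of the C26-CHO livers, 5 of 8 had more Klf6 than the highest C26 liver. Without C26-CHO 1, Klf6 passed the threshold (0.44, adjusted p = 0.0399), as it did without both CT 8 and C26-CHO 1 (0.44, 0.0428). For the others the intervals were -0.53 to 1.33 (Fos), -0.50 to 0.37 (Junb), -0.38 to 0.14 (Fosl2), -1.10 to 0.77 (Egr1), -0.63 to 0.67 (Atf3), -0.52 to 0.29 (Ier2), -0.93 to 0.42 (Ier3) and -0.44 to 0.54 (Myc). These intervals leave room for changes of more than 0.5 on the log2 scale in either direction for Fos, Egr1 and Atf3, and the interval of Fosl2 is the narrowest of these 8.

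**Figure D3:**
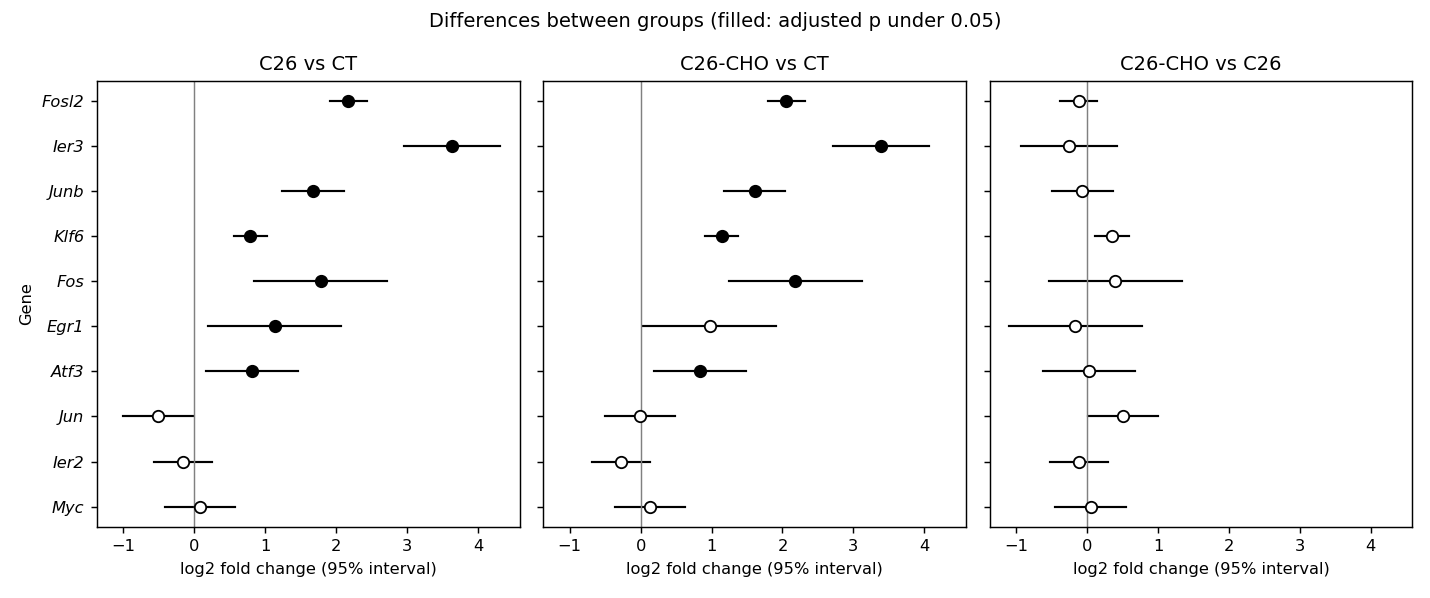
Log2 fold changes of the 10 genes with 95% intervals (limma, n = 8 mice per group) for C26 against CT, C26-CHO against CT and C26-CHO against C26. The intervals of Ier3, Fosl2, Fos, Junb, Klf6, Egr1 and Atf3 lie above 0 in both comparisons with CT. They are not adjusted for the number of genes, and Egr1 in C26-CHO against CT did not pass after adjustment. The intervals of C26-CHO against C26 include 0 except for Klf6 and Jun.

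The members differed widely in how far mice of 1 group lay apart. The SD of log2 values was 1.26 for Egr1 and 1.14 for Fos in CT, larger than in 99.7% and 99.6% of tested genes, where the median SD was 0.203. In C26 these were 0.742 and 1.14, and in C26-CHO 0.918 and 0.587. Fosl2, by contrast, had an SD of 0.134 in CT and 0.122 in C26, below the medians of 0.203 and 0.177, and 0.432 in C26-CHO. The SD of Junb was 0.742 in CT but 0.223 in C26 and 0.194 in C26-CHO, and the difference in spread was not tested.

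Single livers stood low or high in many members at once. CT 8 lay below its group mean in 9 of 10 members, with a median deviation of -0.81, and was the lowest control for 6 of them. C26-CHO 1 also lay below its group mean in 9 of 10 (median -0.82) and was lowest for 6. C26 8 lay below its group mean in all 10, and C26 3 was the highest C26 liver for 4. CT 1 and CT 5 lay above in most members, with medians of 0.77 and 0.46. Leaving out both CT 8 and C26-CHO 1, Egr1 in C26 over CT was 0.73, Fos 1.44 and Junb 1.46, each of them still called.

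**Figure D4:**
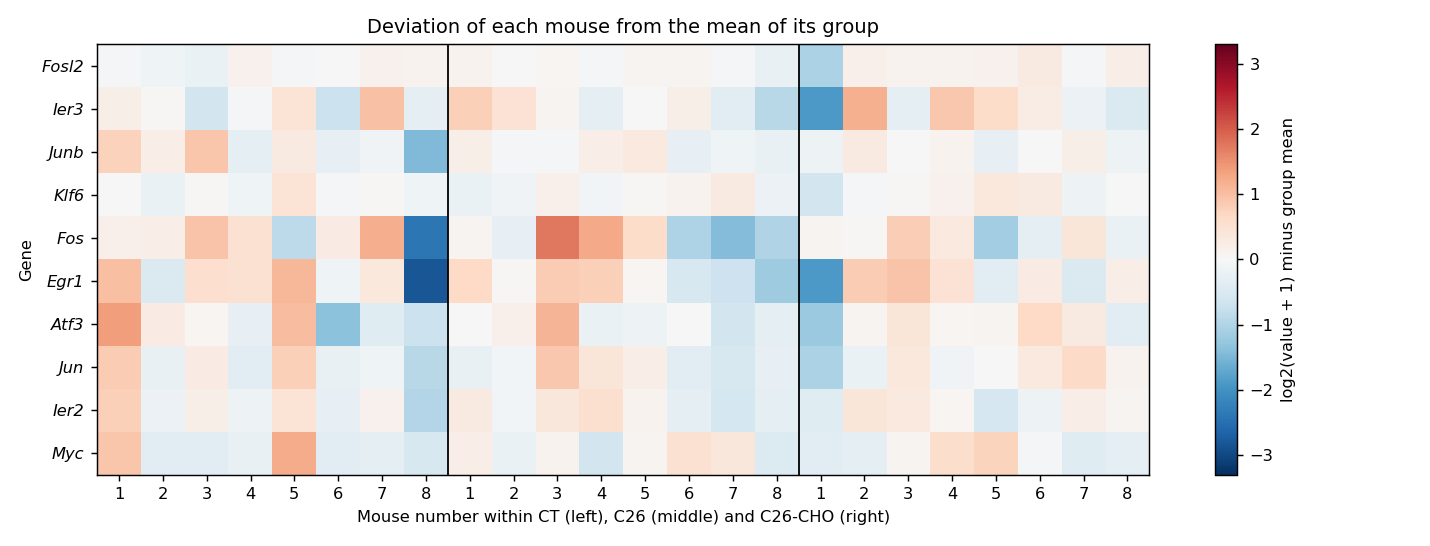
Deviation of each mouse from the mean of its group, on the log2 scale, for the 10 genes. CT 8 and C26-CHO 1 lie below their group means in 9 of 10 genes, and C26 8 in 10 of 10.

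With the group means subtracted, some pairs of members varied together between mice. Of their 45 pairs, 41 had a positive Pearson correlation over 24 mice, and 20 passed at an adjusted p under 0.05 over the 45 pairs, all of them positive. By Spearman's rho 12 passed. Without CT 8 and C26-CHO 1, the livers low in most members, 37 pairs were positive, 5 passed by r and 2 by rho. The 5 were Egr1 with Ier2 (r = 0.812), Jun with Atf3 (0.742), Myc with Klf6 (0.706), Jun with Ier2 (0.70) and Junb with Ier2 (0.659), and Egr1 with Ier2 and Junb with Ier2 also passed by rho. These correlations and their test, 100000 permutations within groups, were chosen after the data were seen. Egr1 and Ier2 were the closest pair, with r = 0.848 (permutation p adjusted over 45 pairs = 0.00045) and rho = 0.833 (adjusted permutation p = 0.000675), and r = 0.813 without the 2 mice farthest from the median. Jun and Atf3 followed at r = 0.803 (adjusted permutation p = 0.000787), rho = 0.619 (0.0214), with 0.719 after the same removal. Junb and Ier2 had r = 0.771 and rho = 0.794 (adjusted permutation p 0.00075 and 0.000675). Myc and Klf6 had r = 0.66 and rho = 0.619 (0.00099 and 0.0214). Ier3 and Fosl2 had r = 0.715 (0.0104), but rho was 0.437 (0.128) and r without the 2 farthest mice was 0.463. Fos and Myc had r = -0.216 (0.436).

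Within single groups, Fos was set against each of the other 9 members, 27 relations in all. In C26 its level followed that of Jun (r = 0.954, exact permutation p = 0.000124, adjusted 0.00335; rho = 0.976, p = 0.000397, adjusted 0.0107; r = 0.904 without 2 mice) and of Ier2 (r = 0.934, exact permutation p = 0.00129, adjusted 0.0174). For Egr1 in C26, r was 0.873 (exact permutation p adjusted 0.0569) and rho 0.905 (adjusted 0.0411). The correlation of Fos with Jun was 0.314 in CT and 0.14 in C26-CHO, and no relation passed in these groups. With 8 mice per group such values are imprecise, and the difference between groups was not tested.

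**Figure D5:**
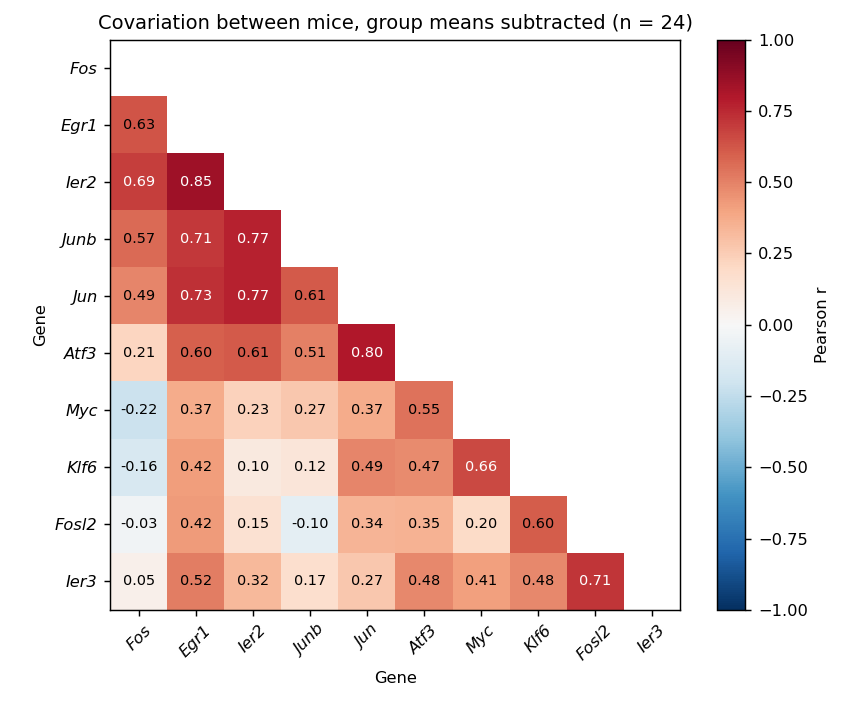
Pearson correlation of each pair of members over 24 mice after the group means were subtracted. Pairs among Fos, Egr1, Ier2, Junb and Jun are between 0.49 and 0.85, and pairs of Fos with Myc, Klf6 and Fosl2 are below 0. The livers CT 8 and C26-CHO 1 are included.

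Each member was compared with 10353 tested genes of mean at least 50, and genes among the 3 with the highest correlation after subtracting group means are given as a description. Fos lay closest to Nr4a1 (r = 0.752), an orphan nuclear receptor of the same early response, with r = 0.755 in CT, 0.886 in C26 and 0.185 in C26-CHO. Jun lay closest to Trib1 (0.835) and Zfp36l1 (0.828), Junb to Socs3 (0.857), the feedback inhibitor of cytokine signalling, Pim1 (0.851) and Gadd45a (0.847). Egr1 lay closest to Ier2 (0.848), Btg2 (0.802) and Trib1 (0.794), and Ier2 to Gadd45a (0.862). For Atf3 these were Pofut1 (0.817), Jun (0.803) and Cish (0.697), for Ier3 Ets2 (0.814), Sbno2 (0.793) and S100a11 (0.787). Genes close to Myc included Tmem123 (0.727) and Hnrnpr (0.722), and Klf6 lay closest to Lrrfip1 (0.806), Frs2 (0.802) and Dennd5a (0.777). The nearest to Fosl2 were Cd28 (0.892), A2m (0.887) and Arfip2 (0.88), and these rested on C26-CHO, where r was 0.976, 0.965 and 0.919, against 0.556, -0.384 and 0.788 in CT. Most of the spread of Fosl2 in C26-CHO came from 1 liver. C26-CHO 1 deviated by -1.043 from the group mean, and the other C26-CHO livers by -0.034 to 0.301.

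Lists of related genes are given beside the background of C26 against CT, where 66.3% of all genes were called, 33.3% higher and 32.9% lower. Of 42 tested immediate early genes beyond the members, 19 were higher and 6 lower in C26 than in CT, with a median log2 fold change of 0.27. Counted in either direction, they were not called more often than genes in general. The balance of higher and lower genes in this list was not tested. Socs3 rose from 126 ± 39.99 to 5733 ± 594 normalised reads (log2 fold change 5.55, limma adjusted p = 2.43e-21), Ier5 by 3.22 (1.09e-14), Nfil3 by 1.71 (5.6e-13) and Nfkbiz by 1.41 (3.04e-12). Chosen after its values were seen, Dusp1, a phosphatase that switches off MAP kinases, fell by 1.89 on the log2 scale (4.61e-09). Ccn1, chosen in the same way, fell by 2.88 (1.48e-08), while Btg2 rose by 2.59 (1.76e-09). In C26-CHO against C26, 1 of the 42 was called: Bhlhe40, a repressor of the circadian clock, was 0.44 higher (adjusted p = 0.0449), with 1228 ± 172 in C26, 1680 ± 375 in C26-CHO and 2520 ± 194 in CT.

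Among 20 tested AP-1 partners and relatives, 10 were higher and 6 lower in C26, including Cebpd (2.39, adjusted p = 1.22e-09) and Atf4 (0.68, 4.41e-09), both higher, and Nfe2l2 (-0.89, 7.98e-11), which was lower. Among the 6 serum response factors and their partners 3 were higher and 1 lower: Mrtfa (1.00), Elk1 (0.73), Srf (0.30) and Elk4 (-0.22). Of 28 genes of the MAP kinase cascade 14 were higher and 10 lower, with Map3k1 at 1.45, Map3k8 at 1.92, Met at 1.03 and Mapk9 at -0.55. For all genes these shares were 33.3% and 32.9%, and the lists of partners, serum response genes and kinases were not tested against them. Of 27 genes known as AP-1 targets 23 were higher and 2 lower, with a median of 1.76, and Cxcl1 (4.08), Icam1 (2.29), Spp1 (4.49) and Mt2 (6.77) had the smallest p. This list, chosen with earlier results known, was not tested either. Cxcl2, Timp1, Ccl2, Plaur, Mmp12, Mmp9 and S100a6 had CT means from 1.36 to 8.95. They passed the filter mean of 10 only through tumour-bearing livers, so being higher was largely set by the filter. The same holds for Batf (4.22 in CT), Batf3 (7.41) and Dusp8 (5.88) in the lists above. Reads of Mt2 may be shared with its close copy Mt1, so its value is uncertain as that of a single gene. These lists hold many genes that respond to cytokines as well, and the median of all tested genes was 0.006. In C26-CHO against CT the counts were 9 higher and 5 lower of 20, 3 and 1 of 6, 12 and 10 of 28, and 22 and 2 of 27.

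Around Myc, 17 tested genes of the Max network included 9 lower and 5 higher in C26, with a median of -0.25, where 32.9% of all genes were lower and 33.3% higher. The balance of the list was not tested. Mycn, a close relative of Myc, fell from 127 ± 50.4 to 23.5 ± 7.54 (log2 fold change -2.33, adjusted p = 1.57e-07), Mlxipl, the glucose-sensing factor also called ChREBP, was -1.12 (2.09e-10) and the Myc antagonist Mxi1 -0.68 (1.18e-09). Usp28, a deubiquitinase that acts on Myc protein, was -1.06 (8.43e-09). Of 44 tested Myc targets in ribosome biogenesis and growth, 16 were higher and 11 lower, with a median of 0.11. Called in either direction, their share was not above the 66.3% of all genes. Ldha (1.14) and Cad (0.91) were higher, Dkc1 (-0.70) was lower, and Cdkn1a, a cell cycle inhibitor that Myc represses, was 4.65 higher. In C26-CHO against CT, 3 were higher and 9 lower of 17 and 15 higher and 10 lower of 44, and Mycl was -1.55 (3.5e-07). Mycl was also lower in C26 against CT (-1.55, adjusted p = 2.9e-07), and stood at -0.004 in C26-CHO against C26 (adjusted p = 0.997). Myc itself did not differ between the groups beyond the spread.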

How the data were processed

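The deposited table holds normalised read counts of 22392 genes in 24 liver libraries, and every column of values was used. Per the labels' protocols, Trizol RNA of frozen liver was freed of DNA with DNase I and sequenced from Illumina libraries. Per the submitters' processing notes, bcl2fastq 2.17, FastQC, Trimmomatic 0.38, STAR 2.6.1d, the build GRCm38 and DESeq2 1.22.2 were used. How reads were counted, with which annotation and whether by strand, is not given in the sources used here.

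The authors deposited a signal, the read count of each gene divided by a size factor of its library. Dividing each column by the value of 1 read gave whole reads for 100% of values (tolerance 0.001 reads), with 19.9 M to 30.5 M reads per library. A symbol was found in GENCODE M21 for 22009 identifiers and not for 383. No pair of libraries was identical. Titles number the libraries 1 to 8 within a group and each was taken as 1 mouse. If they share a source, p-values measure only the spread between these samples.

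The 14040 genes whose mean value reached 10 entered limma 3.58.1 (R 4.3.3; lmFit, then eBayes with trend) on log2(value + 1). All 24 libraries entered 1 fit of 3 groups with no covariate, and p was adjusted by Benjamini-Hochberg within each comparison. Unless a tool is named, adjusted p-values come from limma, and fold changes on this scale understate those of low genes. The script was checked on simulated counts. Levels per kb divide by the union of exons.

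Alternatives were pseudocounts of 0.5 and 5, no filter, a filter at 50, quantile normalisation, edgeR 4.0.16 (TMM or the deposited size factors), DESeq2 1.42.0, the compared groups alone, the replicate number as a block and each library left out. Leaving out both CT 8 and C26-CHO 1, and the correlations between members, were added after the data were seen. Named genes are the 10 members, up to 4 called genes with the smallest p per list and comparison, and the 3 genes most like each member. A few of the genes so chosen are not reported here. The members and lists were chosen with earlier results of these data known.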

Additional observations from a re-analysis of the deposited data

Results flagged for a closer look

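Of 30 groups of 8 values examined (10 genes in 3 groups), 3 held a liver whose gap to its nearest neighbour exceeded 0.526 of the group's range, the limit of Dixon's test for 8 samples. Chance alone marks about 1 in 20 groups. The first was Atf3 in C26 3, at 121 against 62.5 in the next C26 liver (gap 0.685 of the range). Without this liver the difference of C26 from CT no longer passed the threshold. The second was Klf6 in CT 5, at 200.5 against 150 in the next control (0.665), and the call of Klf6 held without it. The last was Fosl2 in C26-CHO 1, at 214 against 431 in the next liver (0.658). That liver also stood between CT and the other tumour-bearing livers on the first principal component, at -13.41.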

How the results depend on the processing

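Fos, Junb, Ier3, Klf6 and Fosl2 were called higher than CT in both tumour-bearing groups in each of 24 fits without 1 library and in all 11 other settings. Egr1 and Atf3 were less stable: in C26 against CT the 24 fits called 19 and 21 times, and 11 and 9 of the 11 other settings did. Without 1 library, the number of members called ran from 6 to 8 in C26 against CT, from 5 to 7 in C26-CHO against CT and from 0 to 1 in C26-CHO against C26. In the last comparison 1 member, Klf6, was called without both CT 8 and C26-CHO 1. Over all genes, that comparison gave 99 calls, but 327 with DESeq2, 10 with only the 2 groups fitted and 23 to 273 without 1 library, so few genes can be placed firmly there. The cause was not tested.

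Signs turned only for differences that no setting called. For C26 against CT, Myc was 0.08 and became -0.011 under quantile normalisation, -0.015 and -0.029 in edgeR with TMM and deposited size factors and -0.032 in DESeq2. For C26-CHO against C26, leaving out both libraries gave 0.109 for Egr1, 0.018 for Ier3 and 0.03 for Fosl2, and for C26-CHO against CT it gave 0.011 for Jun, which was 0.069 under quantile normalisation. Without 1 library, C26-CHO against C26 ran from -0.33 to 0.109 for Egr1, from -0.071 to 0.197 for Atf3, from -0.422 to 0.018 for Ier3, from -0.055 to 0.12 for Myc and from -0.162 to 0.03 for Fosl2, and C26-CHO against CT from -0.137 to 0.143 for Jun. The cause was not tested. No scaling moved the median of all genes by more than 0.04 (log2).

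Deviations of same-numbered mice correlated only weakly between groups, from -0.204 to 0.255. Per pair of groups, 1, 1 and 2 of 8 mice matched their own number best. Such values cannot tell whether same-numbered mice shared a cage or a day. With the number as a block, 7 members were called in C26 against CT, 0 in C26-CHO against C26 and 7 in C26-CHO against CT, where Egr1 was added (0.97, adjusted p = 0.0495).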
